A study of Mus musculus with 8 samples.

Results

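The 40 genes described here encode proteins that carry a cell through G2 and mitosis, among them CDK1 with its cyclins, the Aurora kinases, the kinesins and other proteins of the spindle, the kinetochore, the spindle checkpoint and the machinery of cytokinesis. They were taken from the expression table by name, and a gene was counted where it had a value in all 8 libraries and a mean value of at least 1. All 40 of the 40 met this rule, among 13959 genes that were tested, 17488 that had values and 48321 that were listed. RNA was sequenced from mouse E14 embryonic stem cells (strain 129/Ola) in 4 groups of 2 libraries each: the GSK3β line with inhibitor, the same line untreated, the GSK3α line with inhibitor and that line untreated. The GSK3β line is a knockout of the kinase GSK3β that carries a GSK3β transgene with the L132G change. The GSK3α line is a knockout of its paralog GSK3α that carries a GSK3α transgene with the L195G change. The genotypes name no change to the other paralog in either line. Such analog-sensitive mutants have a larger ATP pocket, which admits compounds like 3MB-PP1 that normal kinases bind poorly. All groups had been kept in serum-free N2B27 medium for 6 h, and the groups with inhibitor were given 5 µM 3MB-PP1 for 2 h. There was 1 line for each paralog, no vehicle is stated for the untreated cells and no line without a mutant kinase was included, so effects of the compound on other targets cannot be told apart from those on GSK3. The labels do not say whether the libraries of a group came from separate cultures, and p-values here measure only the spread between libraries. Values are the authors' signal, estimated gene counts scaled alike in all libraries, and a log2 change is a difference of log2(value + 1).

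Genes of this programme are transcribed late in the cell cycle. CDK1 bound to cyclin A or cyclin B drives entry into mitosis, Aurora A and its activator TPX2 build the spindle, the chromosomal passenger complex around Aurora B corrects the attachment of chromosomes, and the anaphase-promoting complex with CDC20 ends mitosis by marking cyclin B for destruction. Their promoters often hold a CHR element (cell cycle genes homology region) and CCAAT boxes. CHR elements are bound by complexes built on the MuvB core, which repress in quiescent cells as DREAM and activate late in the cycle with B-MYB and FOXM1, and CCAAT boxes are bound by NF-Y. Embryonic stem cells cycle fast and have a short G1 phase.

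Promoter sequences were taken from RefSeq (GRCm38.p6, 250 bases before to 50 bases after each gene start), which matched 34 of the 40 genes. Both strands were searched for TTTGAA or TTCGAA, the letters of CHR elements, and for CCAAT, and 1 CHR match in the 34 genes shared letters with a CCAAT match. The CHR letters were found in 26 of the 34 (76.5%), against 21.7% of the 27025 genes of the promoter table. CCAAT was found in 27 of the 34 (79.4%), against 41.1% of all, and 23 (67.6%) held both, against 8.61% of all. A match is a description of letters and not a site shown to be bound. The promoters of 6 genes are printed to show the range of these layouts among genes with different responses, 5' to 3' on the gene's strand, with matches of either motif in capitals (ATTGG and TTCAAA are CCAAT and TTTGAA read on the other strand). Positions count from the start base as 0.
Aurka: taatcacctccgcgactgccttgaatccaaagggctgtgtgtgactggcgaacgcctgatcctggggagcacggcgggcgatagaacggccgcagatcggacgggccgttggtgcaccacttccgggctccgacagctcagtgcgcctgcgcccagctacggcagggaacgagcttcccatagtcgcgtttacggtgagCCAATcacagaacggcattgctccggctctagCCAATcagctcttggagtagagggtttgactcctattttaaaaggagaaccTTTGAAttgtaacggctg
Ccnb2: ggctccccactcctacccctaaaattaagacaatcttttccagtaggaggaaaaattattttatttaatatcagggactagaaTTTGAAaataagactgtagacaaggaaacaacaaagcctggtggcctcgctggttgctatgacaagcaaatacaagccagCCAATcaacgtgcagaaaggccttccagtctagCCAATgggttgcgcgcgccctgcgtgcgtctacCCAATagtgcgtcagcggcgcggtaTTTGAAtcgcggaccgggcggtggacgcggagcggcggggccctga
Plk1: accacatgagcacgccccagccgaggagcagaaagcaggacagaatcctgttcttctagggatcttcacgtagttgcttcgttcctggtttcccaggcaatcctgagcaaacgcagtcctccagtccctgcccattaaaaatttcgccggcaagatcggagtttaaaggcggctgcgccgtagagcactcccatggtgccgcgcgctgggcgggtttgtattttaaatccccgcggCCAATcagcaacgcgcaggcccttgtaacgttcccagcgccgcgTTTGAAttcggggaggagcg
Cks2: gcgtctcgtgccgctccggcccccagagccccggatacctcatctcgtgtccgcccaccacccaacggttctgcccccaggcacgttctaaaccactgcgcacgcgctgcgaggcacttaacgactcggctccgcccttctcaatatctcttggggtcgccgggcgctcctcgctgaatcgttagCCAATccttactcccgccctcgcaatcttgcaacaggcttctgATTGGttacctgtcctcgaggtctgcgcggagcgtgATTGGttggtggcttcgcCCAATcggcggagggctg
Ccnb1: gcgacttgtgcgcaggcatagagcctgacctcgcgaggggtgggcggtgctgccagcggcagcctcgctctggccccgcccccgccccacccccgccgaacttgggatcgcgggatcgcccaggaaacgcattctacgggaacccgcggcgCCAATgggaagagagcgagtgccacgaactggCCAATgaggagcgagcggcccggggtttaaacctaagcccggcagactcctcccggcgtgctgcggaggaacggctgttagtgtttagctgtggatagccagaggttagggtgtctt
Anln: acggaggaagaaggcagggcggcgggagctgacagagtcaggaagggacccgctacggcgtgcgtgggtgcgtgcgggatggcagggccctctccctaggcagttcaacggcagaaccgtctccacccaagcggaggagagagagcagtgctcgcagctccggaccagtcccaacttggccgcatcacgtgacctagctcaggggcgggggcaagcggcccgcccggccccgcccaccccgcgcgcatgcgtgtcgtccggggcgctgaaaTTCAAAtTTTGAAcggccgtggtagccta

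The Aurka window (chr2:172370521-172370820, minus strand) held CCAAT at -51 and -19 and TTTGAA at 32. That of Ccnb2 (chr9:70421505-70421804, minus strand) held CCAAT at -87, -54 and -21 and TTTGAA at -167 and 4. In the Plk1 window (chr7:122159185-122159484, plus strand) CCAAT stood at -14 and TTTGAA at 30. The Cks2 window (chr13:51644982-51645281, plus strand) held 4 CCAAT matches and the Ccnb1 window (chr13:100786437-100786736, minus strand) held CCAAT at -99 and -67, and the CHR letters were found in neither. The Anln window (chr9:22389157-22389456, minus strand) held the CHR letters at 21 and 28, and CCAAT was not found.

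The estimated reads assigned to genes were 31.2 and 32.4 M in the GSK3β line with inhibitor, 23.8 and 28.9 M in that line untreated, 26.0 and 26.4 M in the GSK3α line with inhibitor and 21.5 and 22.7 M in that line untreated. Each of the 40 genes had at least 1221 estimated reads in every library. Gsk3a had a mean value of 77.0 in the untreated GSK3β line and 158 in the untreated GSK3α line, and Gsk3b had 245 in the untreated GSK3β line and 56.5 in the untreated GSK3α line, so each was higher in the line that carries it as a transgene. All 10 markers of embryonic stem cells had values, with sums of 6550 to 6740 in the 8 libraries. Of the 8 markers in each other list, values were listed for 4 of fibroblasts (none for Col3a1, Dcn, Lum or Postn) and 6 of primitive endoderm (none for Foxa2 or Afp). They were listed for 6 of the neural lineage and 7 of trophoblast (none for Elf5). A gene was blank in all 8 libraries or in none, so a blank does not give a level for any single library.

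In the GSK3β line, mitotic genes fell together by small amounts within 2 h of inhibitor. Of the 40 genes 26 fell, none rose and 14 did not pass the test (limma, Benjamini-Hochberg adjusted p under 0.05 over all tested genes), while 7.44% of all tested genes fell and 7.49% rose. At an unadjusted p under 0.05 no member rose either. The log2 change was below 0 for 39 of the 40 genes, and for 7247 of the 13959 tested genes. The median was -0.12, beside -0.01 for all tested genes, and the changes ran from -0.29 for Cks2 to 0.05 for Anln. Both libraries with inhibitor lay below both untreated libraries for 37 genes, a layout found in 30.0% of all tested genes. The libraries of Cdca8 and Cenpf overlapped between the groups, and those of Anln lay the other way. The 40 genes made up 0.924 and 0.939% of the summed values of the GSK3β libraries with inhibitor and 1.02 and 1.02% of the untreated ones. In bulk RNA, fewer cells in G2 and mitosis and less RNA of these genes per cell cannot be told apart.

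Other values moved with this result. The GSK3β libraries with inhibitor had the most reads of the series, as estimated from each library's smallest value. They also had the highest sums over 3 marker lists: 314 and 296 for fibroblast markers against 281 and 273 in the untreated libraries of that line, 233 and 225 against 164 and 175 for neural markers, and 123 and 119 against 94.9 and 102 for trophoblast markers. Sums for primitive endoderm markers were 10.9 and 10.7 with inhibitor and 10.8 and 10.3 untreated. Of the genes in these lists Vim (log2 change 0.14), the neural genes Nes (0.51) and Tubb3 (0.52) and the trophoblast gene Tfap2c (0.85) rose, the neural gene Neurod1 fell (-0.46), and the other tested ones did not pass. The part of depth and of these markers in the result was not tested.

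**Figure D1:**
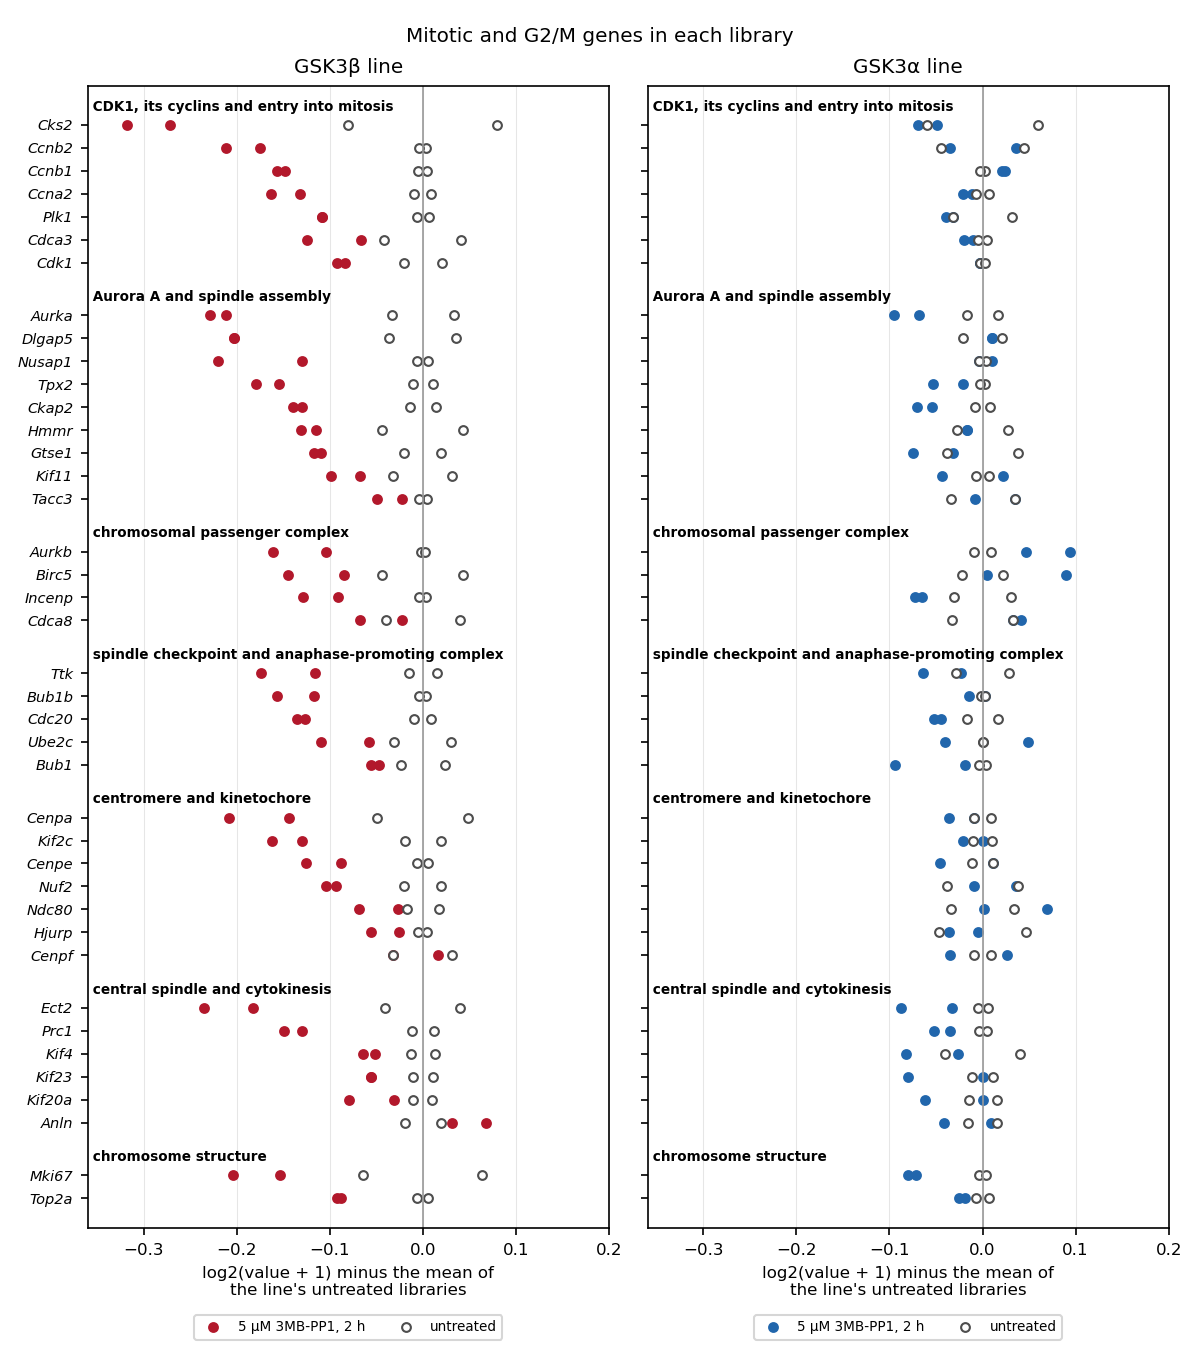
Each library's log2(value + 1) for the 40 genes, grouped by role, minus the mean of the untreated libraries of the same line (filled points, 5 µM 3MB-PP1 for 2 h; open points, untreated; 2 libraries a group). In the GSK3β line the filled points lie left of the open ones for 37 genes, and in the GSK3α line for 13.

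Among the 7 genes of CDK1 and entry into mitosis, 6 fell in the GSK3β line. Cks2 encodes a small subunit that binds CDK1 and its substrates (chromosome 13, 51645232 to 51650662). It had 126 and 122 in the GSK3β libraries with inhibitor and 161 and 144 in the untreated ones, against 140 and 138 with inhibitor and 139 and 151 untreated in the GSK3α line. Its libraries separated in the GSK3β line, where the untreated ones also differed most from each other, and overlapped in the GSK3α line. The log2 change of Cks2 was -0.29 ± 0.05 in the GSK3β line (SE, limma adjusted p = 0.000221), a fold of 0.817. Ccnb2, which encodes cyclin B2 (chromosome 9, 70407689 to 70421554), had 154 and 158 with inhibitor and 179 and 178 untreated in the GSK3β line, against 157 and 165 with inhibitor and 166 and 156 untreated in the GSK3α line. Its GSK3β untreated libraries stood above all the others, and its change was -0.19 ± 0.04 in that line (limma adjusted p = 0.0012). Ccnb1, for cyclin B1 (chromosome 13, 100778739 to 100786486), had 523 and 526 with inhibitor and 585 and 581 untreated in the GSK3β line, and 545 and 544 with inhibitor and 537 and 535 untreated in the GSK3α line. The groups did not overlap in either line, and the order was opposite: lower with inhibitor in the GSK3β line, at -0.15 ± 0.03 (limma adjusted p = 0.000645), and at 0.02 ± 0.03 in the GSK3α line, which did not pass. Ccna2, for cyclin A2, fell by 0.15 and Plk1, the Polo kinase of mitotic entry, by 0.11. Cdk1 itself had 333 and 335 with inhibitor and 360 and 350 untreated in the GSK3β line. Its change of -0.09 ± 0.03 was the nearest to the threshold of those that passed (limma adjusted p = 0.0483), and the call ended under most alternatives, median-ratio scaling among them. Cdca3, a trigger of mitotic entry that acts in the destruction of Wee1, was the exception of the 7, at -0.10 with an adjusted p of 0.0544.

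Of the 9 genes of Aurora A and the spindle, 7 fell in the GSK3β line. Aurka encodes the kinase Aurora A (chromosome 2, 172356190 to 172370886). It had 167 and 165 with inhibitor and 198 and 189 untreated in the GSK3β line, and 163 and 160 with inhibitor and 169 and 173 untreated in the GSK3α line. The libraries with inhibitor lay below the untreated ones in both lines, and the log2 change was -0.22 ± 0.03 in the GSK3β line (limma adjusted p = 0.000107) and -0.08 ± 0.03 in the GSK3α line (adjusted p = 0.325). Tpx2, the activator of Aurora A, had 290 and 295 with inhibitor and 326 and 331 untreated in the GSK3β line, a change of -0.17 ± 0.03 (limma adjusted p = 0.000469). Dlgap5 (HURP), which stabilises spindle microtubules near the chromosomes, had 121 and 121 with inhibitor and 136 and 143 untreated in the GSK3β line, and 140 and 140 with inhibitor and 141 and 137 untreated in the GSK3α line. The GSK3β libraries with inhibitor stood apart from the other 6 libraries, and the change there was -0.20 ± 0.03 (limma adjusted p = 0.000555). Nusap1, a microtubule bundler, had 218 and 232 with inhibitor and 255 and 253 untreated in the GSK3β line, a change of -0.17. The spindle proteins Ckap2 (-0.13), Hmmr (-0.12) and Gtse1 (-0.11) also fell. Kif11, the plus-end motor that pushes the poles apart (-0.08, adjusted p = 0.0915), and Tacc3, which crosslinks spindle fibres (-0.04), did not pass.

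The chromosomal passenger complex has 4 subunits in the set, of which 3 fell in the GSK3β line. Aurkb, the kinase Aurora B, had 82.2 and 85.6 with inhibitor and 91.9 and 92.2 untreated in the GSK3β line, and 86.0 and 83.2 with inhibitor and 81.0 and 80.0 untreated in the GSK3α line. The groups did not overlap in either line and stood in opposite order. Its log2 change was -0.13 ± 0.04 in the GSK3β line (limma adjusted p = 0.018) and 0.07 ± 0.04 in the GSK3α line, which did not pass (adjusted p = 0.462). Survivin (Birc5) fell by 0.12 and the scaffold Incenp by 0.11, and borealin (Cdca8) was at -0.04. Among 5 genes of the spindle checkpoint and the anaphase-promoting complex, the checkpoint kinase Ttk (-0.15 ± 0.04), the checkpoint protein Bub1b (-0.14 ± 0.03) and the activator Cdc20 (-0.13 ± 0.03) fell. Cdc20 had 363 and 361 with inhibitor and 394 and 399 untreated in the GSK3β line, and 367 and 365 with inhibitor and 383 and 374 untreated in the GSK3α line. Ube2c, the ubiquitin-conjugating enzyme of the complex (-0.09), and the checkpoint kinase Bub1 (-0.05) did not pass.

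Of 7 genes of the centromere and kinetochore, 3 fell in the GSK3β line: Cenpa, the centromeric histone H3 variant, with 153 and 160 with inhibitor and 183 and 171 untreated (-0.17 ± 0.04, limma adjusted p = 0.00221), the microtubule depolymerase Kif2c (-0.14 ± 0.03) and the kinetochore motor Cenpe (-0.11 ± 0.03). Hjurp, the chaperone that loads CENP-A, was at -0.04 and did not pass, as did the microtubule-binding NDC80 complex subunits Nuf2 (-0.10) and Ndc80 (-0.05). Cenpf had 183 and 177 with inhibitor and 185 and 177 untreated, with a change of -0.01 and a 95% interval from -0.08 to 0.06. Among 6 genes of the central spindle and cytokinesis, Ect2, which activates RhoA at the division site, had 213 and 221 with inhibitor and 244 and 258 untreated in the GSK3β line, a change of -0.21 ± 0.03 (limma adjusted p = 0.000237). Prc1, the bundler of the central spindle, fell by 0.14, and the kinesins Kif4, Kif23 and Kif20a lay at -0.06, -0.06 and -0.05 without passing. Anln (anillin), the scaffold of the contractile ring, had 237 and 231 with inhibitor and 223 and 229 untreated, at 0.05 (interval -0.02 to 0.12) the highest of the 40 changes. Both genes of chromosome structure fell. Mki67, which coats mitotic chromosomes and is the source of the marker Ki-67, had 202 and 195 with inhibitor and 235 and 215 untreated (-0.18 ± 0.04, limma adjusted p = 0.00238), and Top2a, the topoisomerase that untangles them, had 923 and 920 against 985 and 977 (-0.09 ± 0.03, adjusted p = 0.0303).

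The count of falls depended on how the spread was estimated. Without a trend of the prior variance with expression it was 4 (Aurka, Tpx2, Dlgap5 and Ect2), and without inhibitor replicate 1 of the GSK3β line it was 12. The share of all tested genes that fell was 3.45% and 3.02% in these fits. Of the 26 calls, 11 held in every fit that left out 1 library: Aurka, Ccna2, Ccnb1, Ccnb2, Cdc20, Ckap2, Cks2, Dlgap5, Ect2, Prc1 and Tpx2. Without inhibitor replicate 1 of that line the calls of Aurkb, Birc5, Bub1b, Cdk1, Cenpa, Cenpe, Gtse1, Hmmr, Incenp, Kif2c, Nusap1, Plk1, Top2a and Ttk ended, and without untreated replicate 1 those of Aurkb, Birc5, Cdk1, Cenpe, Incenp, Mki67, Plk1, Top2a and Ttk. Plk1, Hmmr, Gtse1, Incenp and Cenpe also lost the call without inhibitor replicate 2 and without untreated replicate 2, and Cdk1 and Top2a without inhibitor replicate 2. The call of Cdk1 ended as well when the first or the second inhibitor library of the GSK3α line was left out (adjusted p 0.069 and 0.0687). With each line fitted alone the calls of Cdk1, Cenpe and Top2a ended.

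Inhibitor in the GSK3α line moved the same genes little. None of the 40 passed in either direction (limma, lowest adjusted p = 0.325), where 0.616% of all tested genes fell and 0.265% rose. The log2 change was below 0 for 30 of the 40 genes, and for 6483 of the 13959 tested genes. The median log2 change was -0.02, beside 0.01 for all tested genes, and the range was -0.08 for Aurka to 0.07 for Aurkb. Without inhibitor replicate 2 of the line the median was -0.037, beside 0.005 for all tested genes. At an unadjusted p under 0.05 lay 2 genes, Aurka and Mki67 (log2 -0.08), both lower with inhibitor. The share of all tested genes under that threshold was not counted, so these 2 have no background beside them. Both libraries with inhibitor were below both untreated ones for 13 genes, a layout found in 19.0% of all tested genes. They were above both for 3 genes, and for 3210 of the 13959 tested genes. The 40 genes made up 0.957 and 0.965% of the summed values with inhibitor and 0.974 and 0.966% untreated.

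The difference between these changes was tested directly, as the change in the GSK3β line minus that in the GSK3α line. For 6 of the 40 genes the change was lower in the GSK3β line, for none was it higher, also at an unadjusted p under 0.05, and 34 did not pass, where 2.90% of all tested genes were lower and 3.62% higher. The 6 were Cks2 (log2 difference -0.23 ± 0.07, limma adjusted p = 0.0385), Dlgap5 (-0.21 ± 0.05, adjusted p = 0.0138), Aurkb (-0.20 ± 0.05, adjusted p = 0.0219), Ccnb2 (-0.18 ± 0.05, adjusted p = 0.0354), Nusap1 (-0.18 ± 0.05, adjusted p = 0.0251) and Ccnb1 (-0.17 ± 0.04, adjusted p = 0.00871). The median difference over the 40 genes was -0.09, beside -0.01 for all tested genes. Aurka (-0.14, adjusted p = 0.0784), Tpx2 (-0.13, 0.0613), Ect2 (-0.15, 0.0643) and Bub1b (-0.13, 0.0588) fell in the GSK3β line and did not pass for the difference. Bub1 (0.00, interval -0.09 to 0.10), Kif4 (0.00, -0.12 to 0.11) and Cenpf (-0.01, -0.11 to 0.10) had differences nearest 0. The count of 6 became 0 without the variance trend and 0 without inhibitor replicate 1 of the GSK3β line. It was 2 without the first or the second inhibitor library of the GSK3α line or without its untreated replicate 2, and 11 without untreated replicate 2 of the GSK3β line. Of all tested genes 48 were lower without the variance trend, 131 without inhibitor replicate 1 and 620 without untreated replicate 2 of the GSK3β line, against 405 with all libraries and the trend, and 177 to 348 in the 3 fits that left 2. None of the 6 calls held in every fit that left out 1 library.

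**Figure D2:**
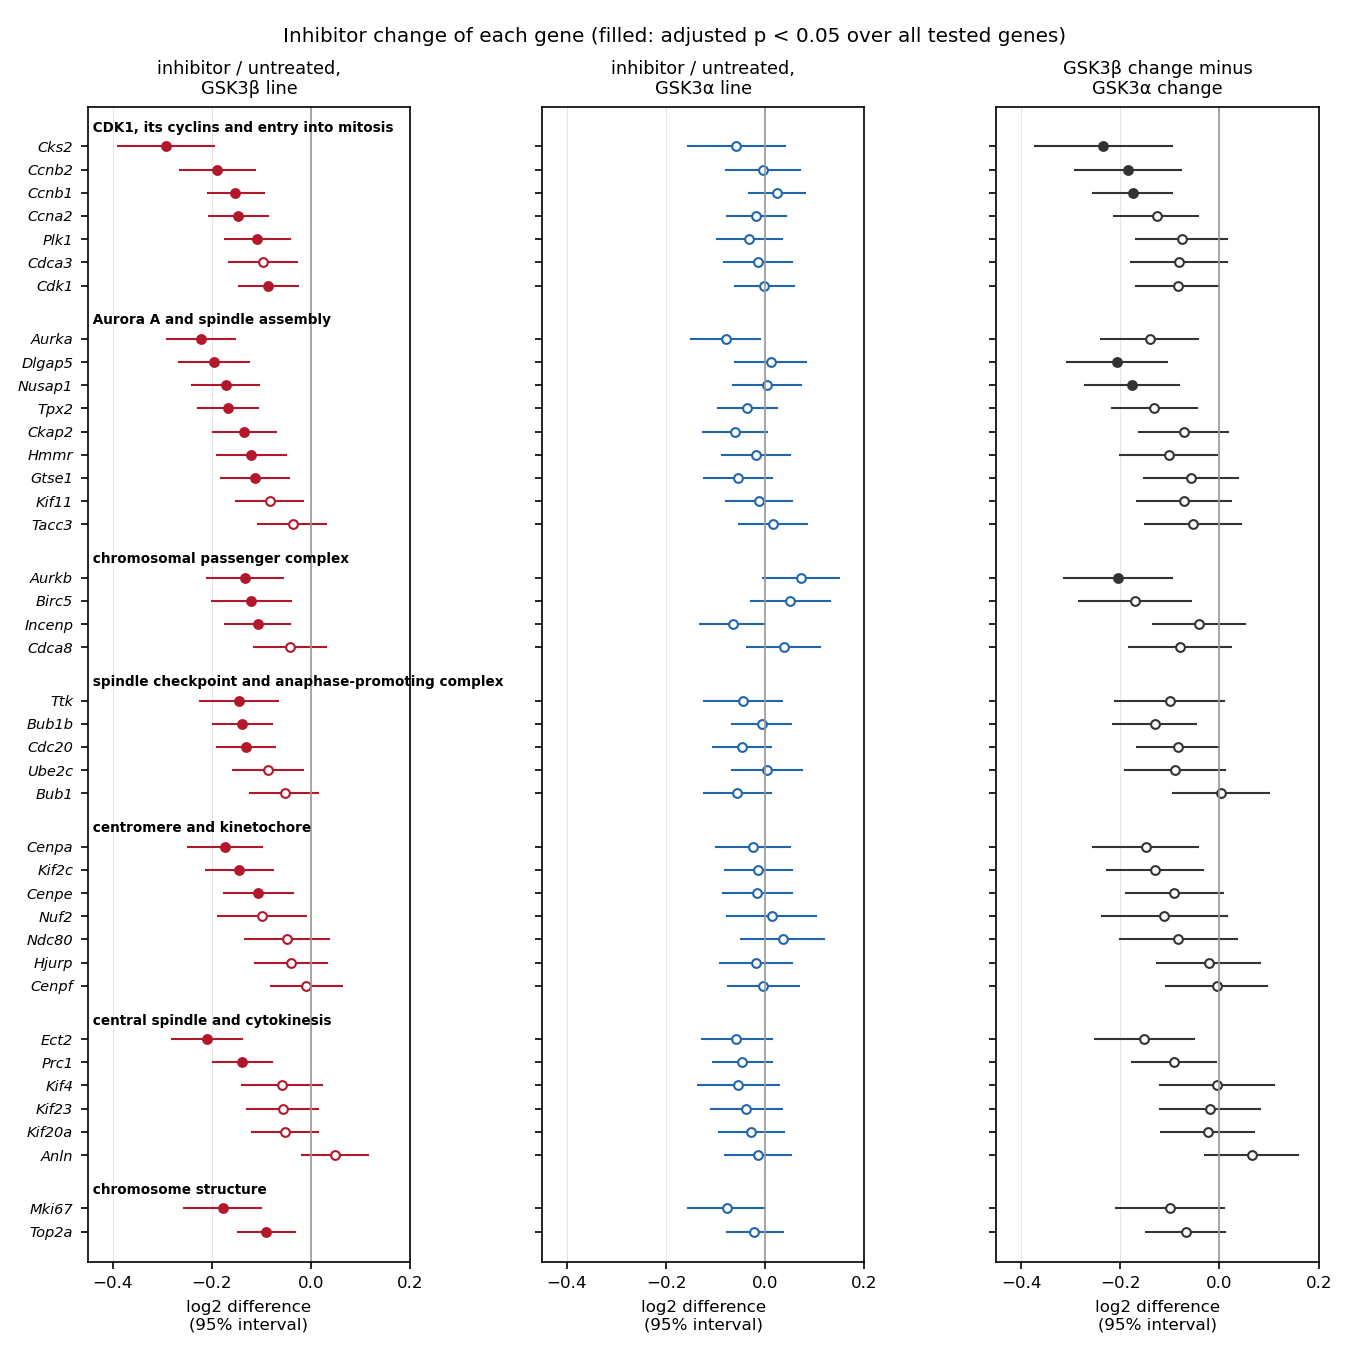
Log2 difference with its 95% interval for each of the 40 genes: inhibitor over untreated in the GSK3β line (left) and the GSK3α line (middle), and the GSK3β change minus the GSK3α change (right). Filled points passed (adjusted p under 0.05 over all tested genes): 26 on the left, none in the middle and 6 on the right.

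Other genes of the cell cycle were counted by list. Of all tested genes 7.44% fell in the GSK3β line and 7.49% rose. In that line 5 of 16 genes that control CDK1 activity fell and none rose. They included the CDK1-activating phosphatase Cdc25b (log2 -0.25, limma adjusted p = 0.00128), the CDK1-inhibiting kinase Wee1 (-0.19), Cks1b, the paralog of Cks2 (-0.18), and Ccnf (-0.16), the cyclin F of an SCF ubiquitin ligase. Among other kinetochore and checkpoint genes 12 of 34 fell, with the centromere subunits Cenpl (-0.35), Cenpq (-0.24) and Cenpp (-0.24) and the CENP-A loading factor Oip5 (-0.22) at the lowest values, and Nsl1 of the MIS12 complex rose (0.17). Of 22 condensin and cohesin genes 10 fell, among them sororin (Cdca5, -0.26), securin (Pttg1, -0.24), the cohesin subunit Stag2 (-0.23) and the acetyltransferase Esco2 (-0.22). Of 35 other spindle, centrosome and cytokinesis genes 13 fell, with Ckap2l (-0.27), Depdc1a (-0.26), the kinesin Kif18b (-0.22) and the centriole protein Stil (-0.21). Of 16 subunits and partners of the anaphase-promoting complex 2 fell, the activator Fzr1 (-0.13) and the enzyme Ube2s (-0.11). That was the smallest share of the 5 lists and the nearest to that of all tested genes. No other gene of these 5 lists rose.

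The falls were not limited to genes of G2 and mitosis. Of 46 genes of G1/S and DNA replication 15 fell in the GSK3β line and none rose, where 7.44% of all tested genes fell and 7.49% rose. The E-type cyclins that start S phase were among them: Ccne2 had 16 and 16 with inhibitor and 21.4 and 21.0 untreated (log2 -0.39 ± 0.06, limma adjusted p = 0.000298), and Ccne1 had 162 and 167 against 196 and 188 (-0.22 ± 0.03). The G1 cyclin Ccnd2 (-0.20) also fell. The median change was -0.08 for this list, -0.10 for control of CDK1, -0.10 for the kinetochore list, -0.09 for condensin and cohesin, -0.09 for the spindle list and -0.05 for the anaphase-promoting complex. Without inhibitor replicate 1 of the GSK3β line the counts of falls were 4 for G1/S, 2 for control of CDK1, 5 for the kinetochore list, 3 for condensin and cohesin, 6 for the spindle list and 0 for the anaphase-promoting complex. Without the variance trend they were 2, 2, 4, 3, 6 and 0 in the same order. Of all tested genes 3.02% fell without inhibitor replicate 1 and 3.45% without the variance trend, so 2 of 46 G1/S genes is a share near that background. In the GSK3α line the libraries of Ccne2 and Ccne1 with inhibitor also lay below the untreated ones, and neither gene passed. Ccne2 had 14 and 13.8 with inhibitor and 15.9 and 15.7 untreated, and Ccne1 had 175 and 178 against 200 and 191. In that line 1 gene of these 6 lists passed, where 0.616% of all tested genes fell and 0.265% rose. It was Ccnd2, which fell (-0.25, limma adjusted p = 0.0297) with 28.2 and 28.1 with inhibitor and 35.4 and 32.0 untreated. That call ended without the variance trend, without untreated replicate 1 and when the first or the second inhibitor library of the line was left out.

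**Figure D3:**
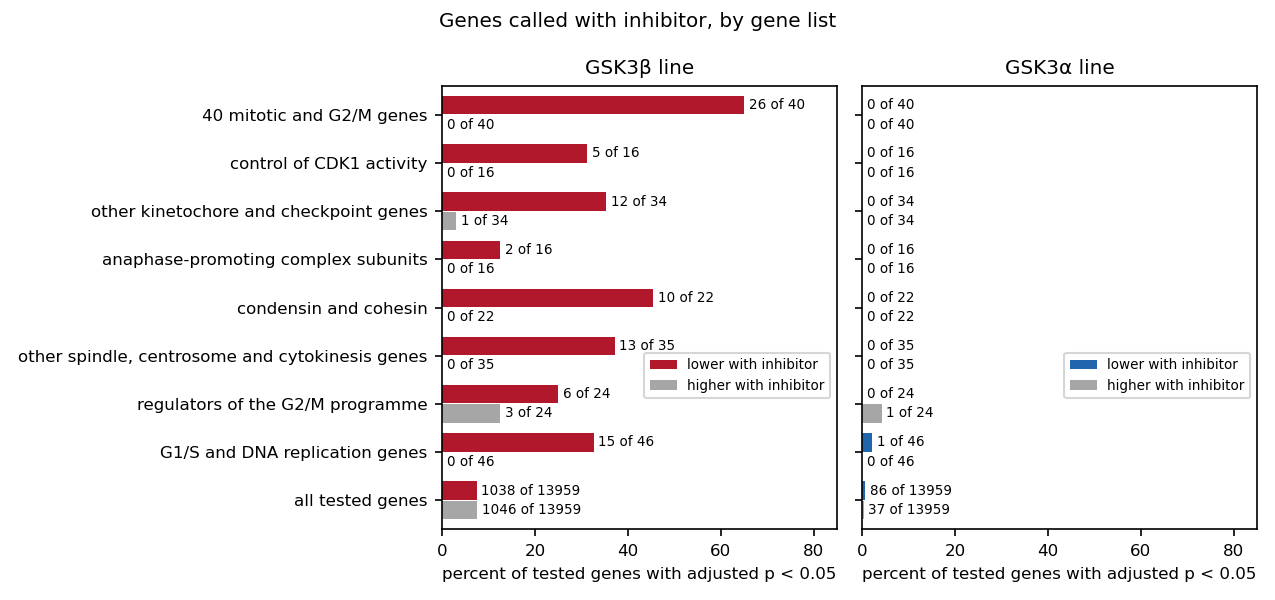
Percent of the tested genes of each list that fell (coloured bars) or rose (grey bars) with inhibitor in the GSK3β line and the GSK3α line, with the counts beside the bars. In the GSK3β line 26 of the 40 mitotic genes fell, against 1038 of 13959 tested genes.

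The regulators that are known to act on this programme were called in both directions, as all tested genes were. In the GSK3β line 3 of 24 rose and 6 fell, where 7.49% of all tested genes rose and 7.44% fell. The share that rose was the nearer to that background. Cdkn1a encodes p21, an inhibitor of cyclin-dependent kinases. It had 76.5 and 72.2 in the GSK3β line with inhibitor and 41.6 and 36.4 untreated, against 62.5 and 59.2 with inhibitor and 70.1 and 71.8 untreated in the GSK3α line. The untreated GSK3β libraries were the lowest of the 8, and the groups did not overlap in either line. Cdkn1a rose by 0.92 ± 0.05 in the GSK3β line (limma adjusted p = 8.36e-10), was at -0.22 ± 0.05 in the GSK3α line (adjusted p = 0.0547), and the difference of 1.14 passed (adjusted p = 4.84e-08). The call in the GSK3β line and that of the difference held under every alternative run. Its level was lower in the untreated GSK3β line than in the untreated GSK3α line, at -0.85, and higher at 0.29 between the lines with inhibitor. Trp53, which encodes the p53 that activates Cdkn1a, was at 0.02 in the GSK3β line and did not pass.

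Of the activators of mitotic genes, Foxm1 had 83.4 and 88.3 with inhibitor and 88.0 and 89.4 untreated in the GSK3β line, and its change of -0.05 ± 0.04 did not pass (limma adjusted p = 0.446). Mybl2, which encodes B-MYB, had 730 and 731 against 671 and 699 and rose by 0.09 ± 0.03 (adjusted p = 0.0341). Nfya, the regulatory subunit of NF-Y, rose by 0.15, and Nfyb (-0.01) and Nfyc (0.02) did not pass. Both of these rises ended without inhibitor replicate 1 or untreated replicate 1 of the line, that of Mybl2 also without inhibitor replicate 2, without the first or the second inhibitor library of the GSK3α line and with the line fitted alone. Of the MuvB core, Lin54, the subunit that contacts CHR elements (-0.20 ± 0.05), and Lin52 (-0.20 ± 0.06) fell, and Lin9 (-0.13), Lin37 (0.07) and Rbbp4 (-0.07) did not pass. The repressors E2f8 and E2f7 fell, E2f8 with 30.9 and 33.5 with inhibitor and 44.7 and 39.6 untreated (-0.38 ± 0.06, adjusted p = 0.000189) and E2f7 with -0.20 ± 0.06. Tfdp2, a partner of E2F factors (-0.24), and Rb1, the retinoblastoma protein (-0.22), fell. The calls of Lin54, Lin52, E2f7 and Rb1 each ended without at least 1 GSK3β library, and those of E2f8 and Tfdp2 held under every alternative run. E2f1, an activator of S-phase genes, was at -0.01 in the GSK3β line and rose in the GSK3α line, with 40.3 and 39.5 with inhibitor and 35.1 and 31.4 untreated (0.26 ± 0.05, adjusted p = 0.0208), a call that ended without the variance trend, without untreated replicate 2 and without the first or the second inhibitor library of that line. Neither the other 23 regulators in the GSK3α line nor Rbl1, Rbl2, E2f3, E2f4, E2f5, Tfdp1 and Cdkn1b in the GSK3β line passed.

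The layout of the promoters can be set beside the change. Among the 21 genes with a promoter entry that fell in the GSK3β line, 15 held the CHR letters (71.4%) and 18 held CCAAT (85.7%), and among the 13 that did not pass 11 held the CHR letters (84.6%) and 9 held CCAAT (69.2%). Of the genes whose promoters are printed, Aurka, Ccnb2 and Plk1 held the CHR letters and fell by 0.22, 0.19 and 0.11. Cks2 and Ccnb1, in whose windows the CHR letters were not found, fell by 0.29 and 0.15, and Anln, with 2 CHR matches, was at 0.05. These counts are small and were not tested.

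The lines also differed before any inhibitor. Between the untreated lines 15 of the 40 genes were higher in the GSK3β line, 6 were lower and 19 did not pass, where 22.3% of all tested genes were higher and 25.9% lower. The median log2 difference was 0.06, beside -0.02 for all tested genes. Plk1 had 219 and 221 in the untreated GSK3β line and 178 and 186 in the untreated GSK3α line (0.28 ± 0.03, limma adjusted p = 6.52e-07), and Nusap1 had 255 and 253 against 215 and 214 (0.24). Cdk1 (0.21), Mki67 (0.21), Aurkb (0.19), Ube2c (0.17) and Aurka (0.17) were also higher in the GSK3β line. The 6 lower genes were Kif11, Prc1, Ckap2 (-0.26), Gtse1 (-0.18), Ect2 (-0.10) and Bub1 (-0.09). The calls of Bub1b, Bub1, Ccnb2, Cenpa and Ect2 each ended when at least 1 single library was left out. After rescaling by median ratios 17 were higher and 4 lower, with those of Bub1 and Ect2 lost, where 24.7% of all tested genes were higher and 23.9% lower.

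With inhibitor in both lines, of the 40 genes 6 were higher in the GSK3β line, 14 were lower and 20 did not pass, where 21.2% of all tested genes were higher and 27.7% lower, and the median difference was -0.05, beside -0.03 for all tested genes. These counts lean the way those of all tested genes do. Cdk1, Cenpf, Kif4, Mki67, Plk1 and Ube2c were higher in the GSK3β line in both comparisons, and Bub1, Ckap2, Ect2, Gtse1, Kif11 and Prc1 were lower in both. For 9 genes that were higher between the untreated lines no difference passed with inhibitor, among them Aurka (0.03), Aurkb (-0.01), Birc5 (-0.02), Ccnb1 (-0.05), Ccnb2 (-0.04) and Cenpa (-0.01). A further 8 genes were lower in the GSK3β line with inhibitor and did not pass between the untreated lines, among them Dlgap5 (-0.20), Cks2 (-0.16), Hmmr (-0.16) and Ccna2 (-0.13). The test of the difference passed for Dlgap5 and Cks2 of these 8, and did not for Hmmr (adjusted p = 0.215), Ccna2 (0.0665), Tpx2, Cenpe, Top2a and Incenp. These comparisons share libraries with those within the lines, so they restate part of the same values. The counts with inhibitor were 3 higher and 8 lower without the variance trend, where 18.5% of all tested genes were higher and 24.4% lower. Fits that left out 1 inhibitor library gave fewer calls in at least 1 direction, for all tested genes as well. After rescaling by median ratios 8 were higher and 10 lower, close to the background under that scaling, where 25.3% of all tested genes were higher and 23.6% lower. The median of the 40 was then -0.021, and -0.032 without inhibitor replicate 1 of the GSK3β line.

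**Figure D4:**
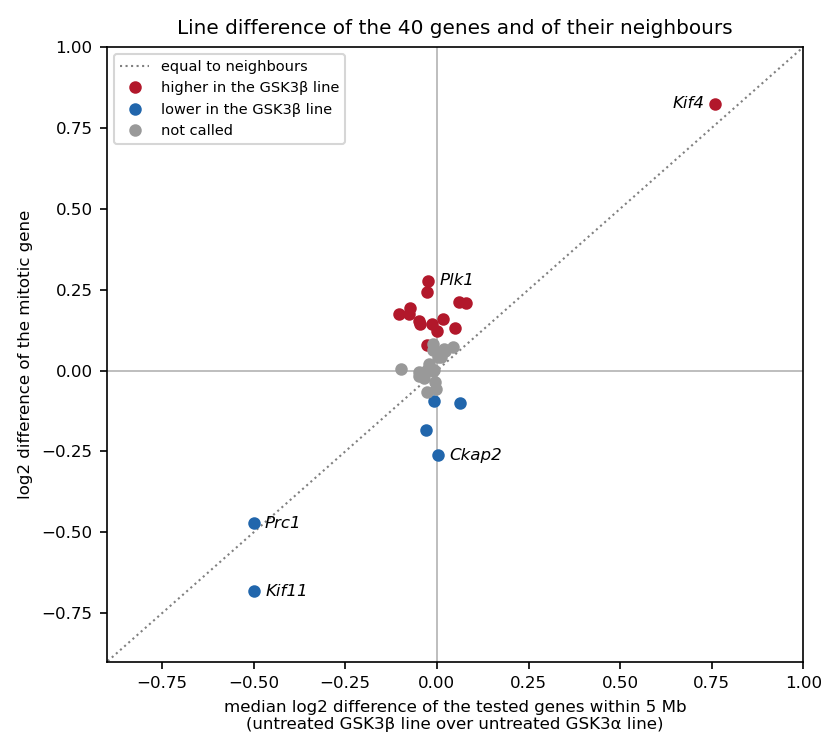
Log2 difference between the untreated lines (GSK3β over GSK3α) of each of the 40 genes (vertical) against the median of the tested genes whose starts lie within 5 Mb (horizontal). The dotted line marks equal values. Kif4 lies at 0.83 with neighbours at 0.76, and Kif11 and Prc1 at -0.68 and -0.47 with neighbours at -0.50 and -0.50, while the neighbours of the other 37 genes lie within 0.2 of 0.

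The largest line differences of the set were found in stretches of the genome where most genes differed in the same direction, a comparison chosen after the values were seen. Kif4, a chromosome-bound kinesin of the central spindle (chromosome X, 100626065 to 100727271), had 112 and 114 in the untreated GSK3β line and 65.1 and 61.5 in the untreated GSK3α line, a log2 difference of 0.83 ± 0.04 (limma adjusted p = 3.99e-12). Of the 54 tested genes that start within 5 Mb, by the lower coordinate of each gene, 49 were higher in the GSK3β line and 1 lower, with a median difference of 0.76. Kif11 (chromosome 19, 37376382 to 37421863) had 243 and 254 in the untreated GSK3β line and 397 and 401 in the untreated GSK3α line, a difference of -0.68 ± 0.03. Of its 62 neighbours 47 were lower in the GSK3β line and 5 higher, with a median of -0.50. Prc1 (chromosome 7, 80294445 to 80316259) had 241 and 245 against 336 and 338, a difference of -0.47 ± 0.03, and 53 of its 70 neighbours were lower and none higher, with a median of -0.50.

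The same stretches stood out with inhibitor, where the neighbours' medians were 0.76 for Kif4, -0.52 for Kif11 and -0.51 for Prc1. Within 2 and 10 Mb the untreated medians were 0.87 and 0.73 for Kif4, -0.59 and -0.47 for Kif11 and -0.52 and -0.50 for Prc1. Inhibitor against untreated in the GSK3β line gave neighbour medians of -0.04, -0.02 and 0.01. Leaving out these 3 genes, 14 of the other 37 were higher in the untreated GSK3β line, 4 were lower and 19 did not pass. Of all tested genes, such stretches included, 22.3% were higher and 25.9% lower. The median of the 37 was 0.06, with a range of -0.26 for Ckap2 to 0.28 for Plk1. Why these stretches differed was not tested.

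**Figure D5:**
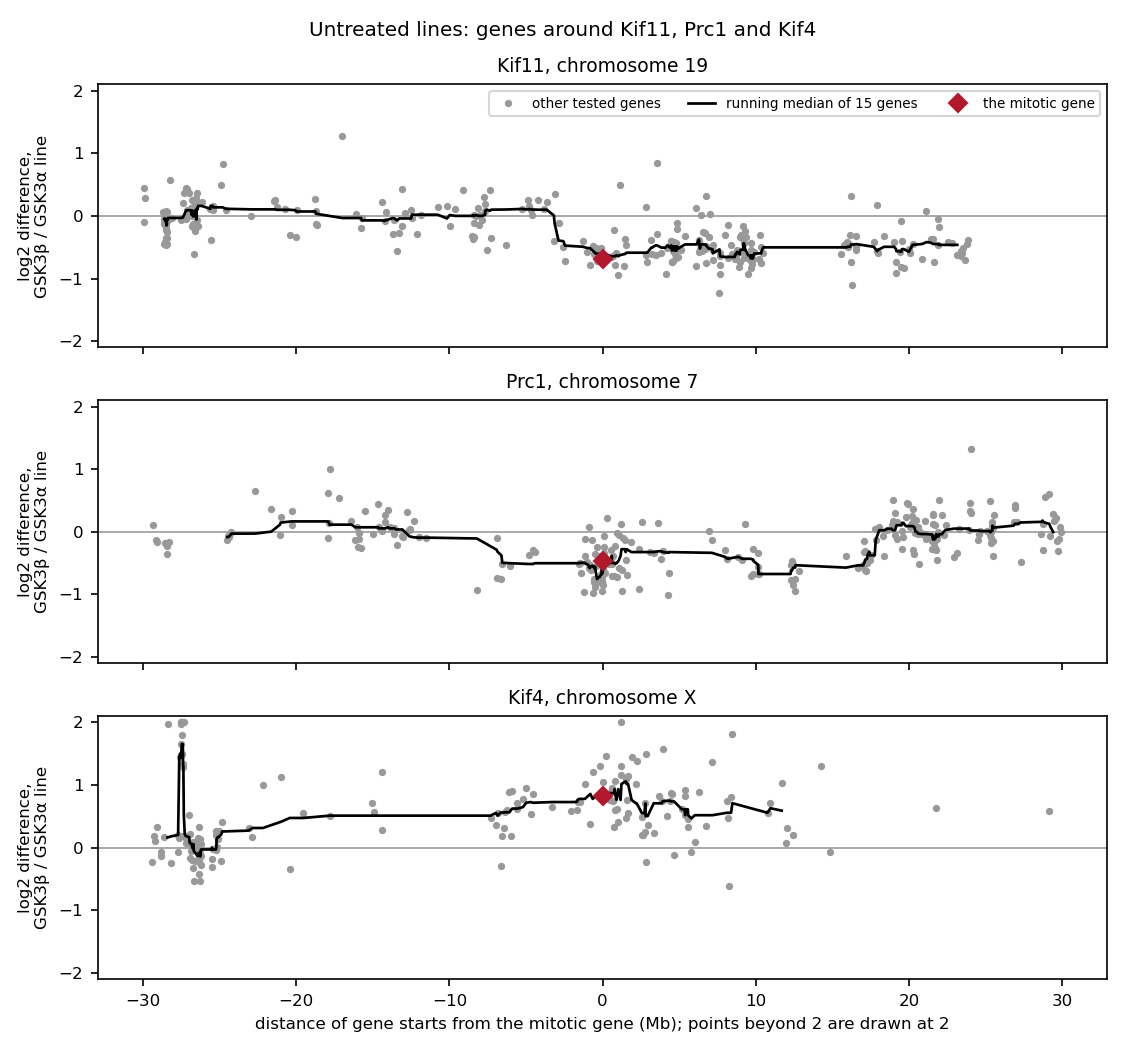
Log2 difference between the untreated lines (GSK3β over GSK3α) of tested genes up to 30 Mb on either side of Kif11, Prc1 and Kif4 (grey points), with a running median of 15 genes (line) and the mitotic gene (diamond); points beyond 2 are drawn at 2. On chromosome 19 the median lies near 0 from 30 to 10 Mb before Kif11 and at -0.56 in the 10 Mb after its start.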

How the data were processed

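The authors deposited 1 table of signal values for 8 libraries: estimated gene counts that, as the values show, were scaled to an equal upper quartile in every library, and not raw counts. Reads were aligned with TopHat2 and summarised with Partek on mm10, per the submitters' processing notes. Versions, gene annotation and strand setting are not given in the sources used here. Reads were estimated as a library's sum divided by its smallest value. Genes averaging 1 or more were analysed as log2(value + 1), which understates changes of low genes, with limma-trend (limma 3.58.1, R 4.3.3), 1 mean for each of the 4 groups, two-sided tests, Benjamini-Hochberg adjustment over 13959 genes and a threshold of 0.05. The fit was run on simulated data as a check of the code. How often it finds changes as small as those of the 40 genes is not given here. SE and 95% intervals are from that fit. The members and gene lists were chosen with earlier results of these data known. Genes outside the 40 were named as regulators, as the paralogs, or as the up to 4 largest called changes of their list, with other named genes chosen after their values were seen. The neighbour comparison and the alternatives for gene lists were also added then. Alternatives were other pseudocounts and filters, median-ratio scaling, a replicate block, no variance trend, each line alone and each library left out. Promoters and neighbours were computed with Python 3.11.15 and pandas 2.3.3, and gene positions are from RefSeq on GRCm38.p6, the assembly that mm10 names. Across tested genes the samples sharing a replicate number did not deviate together, with correlations of -0.05 to 0.03. Across the 40 genes the correlations ran from -0.38 to 0.32.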

Additional observations from a re-analysis of the deposited data

Results flagged for a closer look

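For 6 of the 40 genes the inhibitor change differed between the lines by the test of the difference itself (limma, Benjamini-Hochberg over all tested genes). Of all tested genes 2.90% were lower by this test and 3.62% higher. None of the 6 passed without the variance trend, and each call also ended in at least 1 fit that left out a library. The change in the GSK3β line minus that in the GSK3α line was -0.234 for Cks2 (adjusted p = 0.0385), -0.206 for Dlgap5 (0.0138), -0.205 for Aurkb (0.0219), -0.185 for Ccnb2 (0.0354), -0.176 for Nusap1 (0.0251) and -0.175 for Ccnb1 (0.00871). All 6 fell in the GSK3β line and none passed in the GSK3α line. Aurkb, Ccnb1, Ccnb2 and Nusap1 were higher in the untreated GSK3β line than in the untreated GSK3α line (log2 0.19, 0.12, 0.15 and 0.24). None of these 4 passed between the lines with inhibitor. Cks2 and Dlgap5 did not pass between the untreated lines and were lower in the GSK3β line with inhibitor (-0.16 and -0.20). The test of the difference is built from the same libraries, so these line comparisons restate part of its values.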

How the results depend on the processing

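No called change of the 40 genes reversed under the alternatives run. With 2 libraries a group the spread rests on information shared across genes, and without the variance trend the falls of the 40 genes in the GSK3β line numbered 4 in place of 26, those of the difference 0 in place of 6, and the calls between the lines with inhibitor 8 lower and 3 higher in place of 14 and 6. Leaving out each library in turn gave 12 to 26 falls in the GSK3β line, 0 to 11 for the difference, 9 to 14 lower and 3 to 6 higher between the lines with inhibitor, and medians of -0.037 to -0.016 in the GSK3α line, 0.044 to 0.060 between the untreated lines and -0.059 to -0.032 between the lines with inhibitor. Where an arm kept 1 library, it was assumed to vary like the others. The shares of all tested genes that passed also moved between these fits, so these ranges of counts do not single out the 40 genes. For the GSK3β line and for the difference, the share of lower genes was smallest without inhibitor replicate 1 of that line. For the difference it was largest without untreated replicate 2 of that line. Rescaling by median ratios moved the median between the untreated lines to 0.077 and that with inhibitor to -0.021. Other pseudocounts, another filter on low values and each line fitted alone left every count of the 40 genes within 1.5 times. Across tested genes the samples sharing a replicate number did not deviate together. With a replicate block the falls numbered 24 in the GSK3β line and 7 for the difference, where 7.14% and 2.60% of all tested genes were lower. The causes were not tested. Each of the 40 genes had at least 1221 estimated reads per library, and the precision is limited by 2 libraries a group.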

Other observations

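Other genes of chromosome division, chosen after their values were seen, lay in the stretch of chromosome 19 that holds Kif11 and differed between the untreated lines in the same direction. The kinesin Kif20b was at -0.72 (GSK3β over GSK3α line), the abscission protein Cep55 at -0.64 and the cohesin subunit Smc3 at -0.73. With inhibitor in both lines they were at -0.75, -0.63 and -0.68.

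Markers of embryonic stem cells moved in both directions with inhibitor in the GSK3β line while their sum stayed between 6550 and 6740 in all 8 libraries. Klf4 (log2 0.59), Esrrb (0.22) and Nanog (0.14) rose, and Fgf4 (-0.52), Tdgf1 (-0.24) and Utf1 (-0.20) fell (limma, adjusted p under 0.05). These were all the markers of the list that passed in that line, and the other 4 of the 10 did not. In the GSK3α line Fgf4 rose by 0.14 (limma adjusted p = 0.0497), a call that ended when any 1 library of that line was left out.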
